A study of Mus musculus with 57 samples.

Results

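Interferon-stimulated genes are the genes that cells switch on when an interferon binds its receptor, and many of them block viruses or intracellular bacteria. A set of 37 such genes was followed in bone marrow of mice given an antibody against PAPP-A (pregnancy-associated plasma protein A), a secreted protease that cleaves insulin-like growth factor binding proteins. The members were the Ensembl genes of the deposited table that carry the names on the list, and all 37 were found among 47712 Ensembl genes. They fall into 9 groups by role: IFIT RNA-binding proteins, the ISG15 system, nuclease and nucleotide enzymes, transcription factors, Mx and membrane proteins, the OAS family, nucleic acid sensors, GTPases, and other induced genes.

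The mice were male C57BL/6 mice, 8 weeks old at treatment, given control treatment or anti-PAPP-A antibody (label aPAPPA) for 4 weeks. Marrow was profiled by RNA sequencing either unsorted as whole bone marrow (WBM) or sorted into mesenchymal stromal cells (MSC), common lymphoid progenitors (CLP), megakaryocyte erythrocyte progenitors (MEP), granulocyte macrophage progenitors (GMP), hematopoietic stem cells (HSC) and Myeloid cells. There were 57 libraries in 3 batches (A, B and C), made from 10 pools of control mice and 10 of treated mice. MSC had 6 control and 4 treated libraries (3 and 1 in batch A, 3 and 3 in batch C). HSC had 3 and 4, and CLP, GMP and MEP had 4 and 4 each, all in batch A. Myeloid had 3 and 3 in batch B and 3 and 3 in batch C, which were read apart, and WBM had 4 control libraries and no treated library. Neither the sorting gates nor how many mice made a pool is given in the sources used here. A pool is the replicate, so each p-value measures the spread between pools.

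Type I interferons act through the receptor chains IFNAR1 and IFNAR2, and interferon gamma acts through IFNGR1 and IFNGR2. The receptors activate JAK kinases. After a type I signal, the complex ISGF3, which contains STAT2 and IRF9, binds interferon-stimulated response elements, whereas interferon gamma acts through gamma-activated sequences. Some of the target genes are also expressed at rest, and stem cells are known for a constitutive antiviral program that falls as cells differentiate. In marrow, both kinds of interferon are known to push stem cells out of quiescence.

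RefSeq promoter windows (build GRCm38.p6, 250 bases before to 50 bases after a start) were found for 28 of the 37 members. The core letters of the response element, GAAANNGAAA on either strand, were present for 17 of those 28 genes (60.7%), against 3.99% of the 27025 genes with a window. The core of the gamma-activated sequence, TTCNNNGAA, which reads as the same pattern on both strands, was present for 7 of 28 (25%), against 9.55% of all genes. A run of GAAA repeats can hold several overlapping matches, and a match is a description of letters, not of binding. Both cores were absent from the windows of 8 members: Cmpk2, Ifi44, Ifi47, Irf7, Irf9, Oasl1, Oasl2 and Xaf1. The windows of 6 genes that recur in the results are shown in part, each 120 bases, 5′ to 3′ in the direction of the gene, with every match to the response element core in capitals.

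The Isg15 stretch lies at chr4:156200826-156200945 (reverse strand, 127 to 8 bases before the start), that of Ifit1 at chr19:34640739-34640858 (forward, 150 to 31 bases before), that of Ifit3 at chr19:34583335-34583454 (forward, 194 to 75 bases before). The Oas1a stretch lies at chr5:120907526-120907645 (reverse, 120 to 1 bases before), that of Rsad2 at chr12:26456508-26456627 (reverse, 175 to 56 bases before), that of Cmpk2 at chr12:26469065-26469184 (forward, 150 to 31 bases before). Ifit3 is shown because its stretch is identical over 120 bases with that of its neighbour Ifit3b (0 differing bases). Rsad2 and Cmpk2 are neighbours that are read in opposite directions, and Cmpk2 is shown as a member without a match.

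Isg15: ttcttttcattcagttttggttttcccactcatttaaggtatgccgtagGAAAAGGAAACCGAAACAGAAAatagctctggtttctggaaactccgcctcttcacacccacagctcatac
Ifit1: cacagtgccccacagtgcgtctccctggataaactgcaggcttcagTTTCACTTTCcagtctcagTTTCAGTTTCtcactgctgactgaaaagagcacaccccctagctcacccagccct
Ifit3: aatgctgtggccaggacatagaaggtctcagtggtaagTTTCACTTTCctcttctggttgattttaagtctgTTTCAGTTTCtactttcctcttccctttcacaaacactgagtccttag
Oas1a: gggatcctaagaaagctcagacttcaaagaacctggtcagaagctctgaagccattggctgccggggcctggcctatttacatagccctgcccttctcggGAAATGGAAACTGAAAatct
Rsad2: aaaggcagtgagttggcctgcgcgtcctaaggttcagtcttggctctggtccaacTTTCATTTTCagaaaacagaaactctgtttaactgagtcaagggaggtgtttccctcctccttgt
Cmpk2: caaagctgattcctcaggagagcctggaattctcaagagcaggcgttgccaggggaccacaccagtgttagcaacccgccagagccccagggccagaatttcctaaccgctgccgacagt

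The libraries differed widely in depth, from 107412 to 125537299 counts, with the 6 Myeloid libraries of batch B at 87015375 or more and 4 libraries under 1000000 counts (HSC treated pool 6, MSC control pool 7, MSC treated pool 8 and CLP control pool 5). Levels below are CPM, a gene's counts relative to the size of its library, after TMM scaling over the 57 libraries. The labelled populations carried their own markers: summed stromal markers were 40830 to 72270 CPM in MSC controls, stem cell markers 885 to 1203 in HSC controls, and neutrophil markers 150800 to 208000 in Myeloid controls. CLP controls had lymphoid progenitor markers of 1839 to 2422 CPM, but markers of granulocyte-monocyte progenitors were higher there, at 2773 to 10730. CLP control pool 1 and treated pool 2 stood apart, with neutrophil markers of 8291 and 8168 CPM and erythroid markers of 907 and 1076, against at most 1971 and 332 in the other CLP libraries. MSC control pool 7 held 2669 CPM of macrophage and 7798 of plasma cell markers, against at most 66.3 and 534 in the other batch A MSC controls. In bulk samples, fewer cells of a type and less RNA per cell cannot be told apart. Pappa, which encodes the protein the antibody binds, was at 387 to 547 CPM in the 3 batch A MSC controls and at most 2.35 in every control of the other populations. The antibody acts on the protein, so this checks the sort and not the treatment.

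Some counts are uncertain because near-identical genes share sequence. By the GENCODE vM21 annotation (GRCm38), of all 31-base words in a gene's exons, Oas1a shared 68.8% with other genes (mostly Oas1g), Ifit3 61.8% and Ifit3b 55.2% (with each other), Ifitm3 20.5%, Igtp 15.9%, Isg15 12.8%, Rtp4 12.5%, Trim30a 11.7% and Ifit1 10.5%. Igtp, Ifi47, Irf9, Parp14 and Rtp4 also overlap exons of another gene on the same strand. The members lie on 14 chromosomes, with 6 on chromosome 11 and 5 on chromosome 5, where Oas1a, Oas2 and Oas3 sit together and Oasl1 lies beside Oasl2.

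The resting level of the genes differed strongly between populations. Averaged over the 37 members on the log2(CPM + 1) scale, the batch A control libraries of GMP were lowest, at 2.66 ± 0.05 (SD, n = 4), with libraries from 2.60 to 2.71. MEP (3.13 ± 0.07, n = 4) and CLP (3.14 ± 0.23, n = 4) overlapped each other. MSC of batch A (4.14 ± 0.18, n = 3) and HSC (4.19 ± 0.06, n = 3) overlapped each other as well and lay above every CLP, GMP and MEP library. For MSC this depended on the scaling of pool 7, a library of 321860 counts. With plain library totals in place of TMM, its mean was 3.35, against 4.63 and 4.41 in MSC pools 3 and 5. That is below CLP control pools 3 and 7 (3.68 and 3.49) and MEP control pools 3 and 5 (3.38 and 3.36). The HSC controls were at 4.48 to 4.53 on that scale. In the other batches, MSC controls of batch C averaged 4.57 ± 0.10 (n = 3), Myeloid controls of batch C 3.74 ± 0.38 (n = 3) and Myeloid controls of batch B 4.33 ± 0.79 (n = 3). The mean is a description and was not tested.

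**Figure D1:**
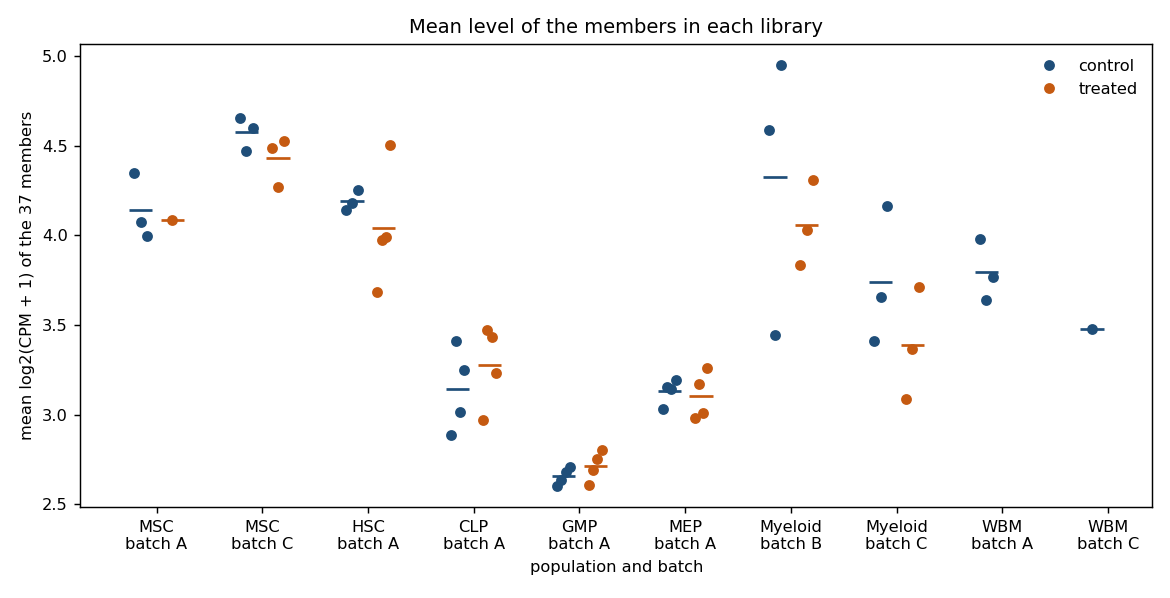
Mean log2(CPM + 1) of the 37 members in each of the 57 libraries (vertical axis) by population and batch (horizontal axis), with control in blue, treated in orange and a short bar for each group's mean. GMP libraries sit lowest, between 2.60 and 2.80, and the 3 Myeloid controls of batch B are spread from 3.44 to 4.95.

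Per kilobase of exon, Ifitm3 was the most abundant member in the controls of every population except GMP. Its median over control libraries was 1649 CPM per kilobase in MSC of batch C, 711 in MSC of batch A, 755 and 749 in Myeloid of batches B and C, 297 in HSC, 67.5 in CLP and 62.3 in MEP. In GMP, Bst2 led with 43.1 CPM per kilobase against 40.7 for Ifitm3. The number of members with a median below 1 CPM per kilobase was 17 in GMP, 12 in MEP, 10 in CLP, and 5 each in HSC and batch A MSC.

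**Figure D2:**
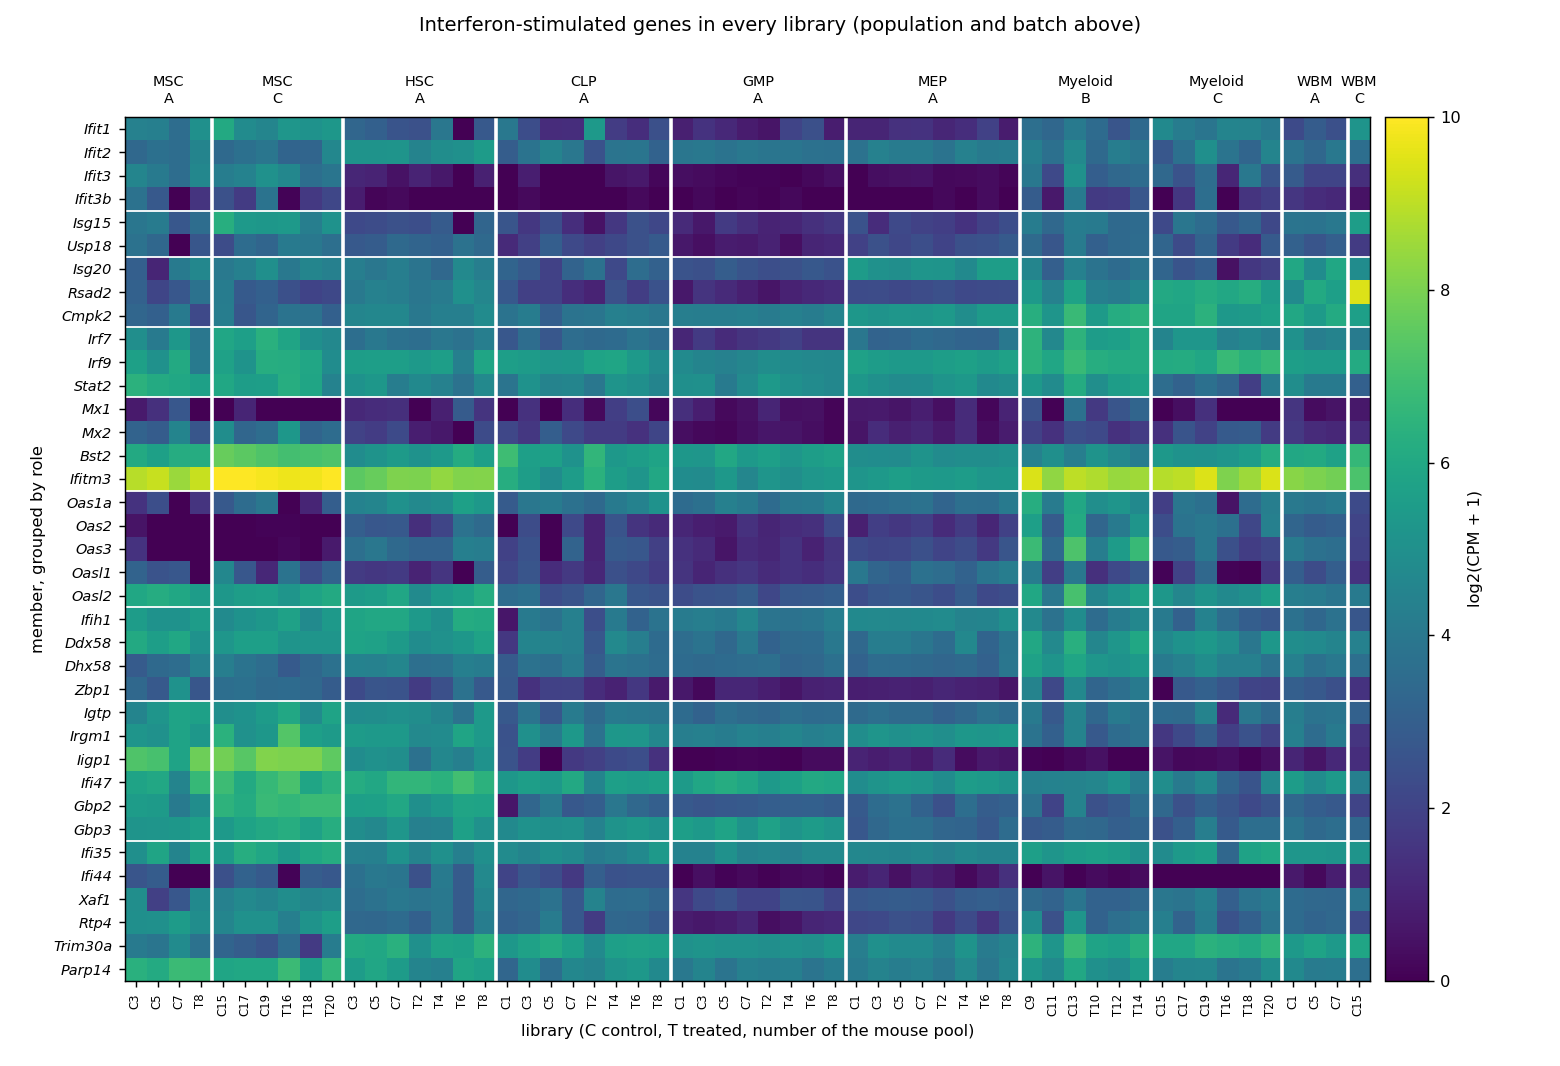
Level of each member (vertical axis, grouped by role) in each library (horizontal axis, C for control and T for treated with the pool number, population and batch above), coloured by log2(CPM + 1). Ifitm3 is bright in MSC and Myeloid libraries, Iigp1 in MSC libraries, and Oas2 and Oas3 are dark in MSC.

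To compare populations within a batch, each was set against the mean of the other 4 in the 18 batch A control libraries (3 MSC, 3 HSC, 4 CLP, 4 GMP, 4 MEP), and 36 members passed the filter on low counts. Ifit3b did not. In the account by role that follows, levels are compared among these 18 sorted libraries, and whole marrow and the other batches are left aside. The log2 differences below are those of that fit, with its standard error, and the 4 other populations count equally on the log scale. The calls are at an adjusted p under 0.05 (edgeR quasi-likelihood test, Benjamini-Hochberg over 17410 genes).

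In MSC, 21 members were higher and 7 lower, where 26.9% of all genes were called higher and 29.9% lower, and the median log2 difference was 1.03 for the members and −0.09 for all genes. In HSC, 20 were higher and 1 lower, against 16.9% and 8.24% of all genes, with medians of 0.89 and 0.04. In CLP, 5 were higher and 7 lower, against 18.5% and 9.02%, with medians of −0.19 and 0.09. In GMP, 1 was higher and 23 were lower, against 21.3% and 15.1%, with medians of −1.21 and 0.04. In MEP, 3 were higher and 15 lower, against 22.2% and 15.3%, with medians of −0.49 and 0.01. The members' share called lower in GMP and called higher in HSC was thus well above that of all genes, while in CLP the 5 higher calls were a smaller share than the background.

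The 20 members higher in HSC were not simply those higher in MSC. Of them, 10 were higher in both: Usp18, Ifitm3, Oasl2, Ddx58, Igtp, Iigp1, Gbp2, Ifi44, Rtp4 and Parp14. Another 6 were higher in HSC and lower in MSC: Ifit2, Isg20, Oas1a, Oas2, Oas3 and Trim30a. Of the 36 members, 11 were lower in both GMP and MEP, and Mx1 was called in no population. These counts share libraries, since each population is in the comparison set of the others. The share of all genes with each of these joint patterns was not computed, so the counts only describe the members.

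The scale matters most for MSC: taking DESeq2's size factors in place of TMM moved the log2 differences of MSC by 0.30 and plain library totals moved them by −0.25, while plain totals moved HSC by 0.26 and DESeq2's factors moved GMP by −0.16 and MEP by −0.17. The share of all called genes that were higher moved with it, from 47.3% to 61.1% with DESeq2 in MSC, from 67.2% to 80.8% with plain totals in HSC, from 58.5% to 41.4% with DESeq2 and 47.4% with plain totals in GMP, and from 59.1% to 41.5% with DESeq2 in MEP. Among the members, DESeq2 called 25 higher and 3 lower in MSC, 21 and 1 in HSC, 1 and 24 in GMP, and 3 and 19 in MEP. With pool 7 left out of every population, the counts in MSC were 19 higher and 4 lower, and without pool 5 they were 16 and 4. In CLP they were 1 and 4 without pool 1, 1 and 3 without pool 3, 0 and 4 without pool 5, and 3 and 5 without pool 7. Without pool 3 or without pool 5, 9 members were lower in MEP, and without pool 1, 2 were higher in GMP. The contribution of the other cell types' RNA in those libraries was not tested.

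**Figure D3:**
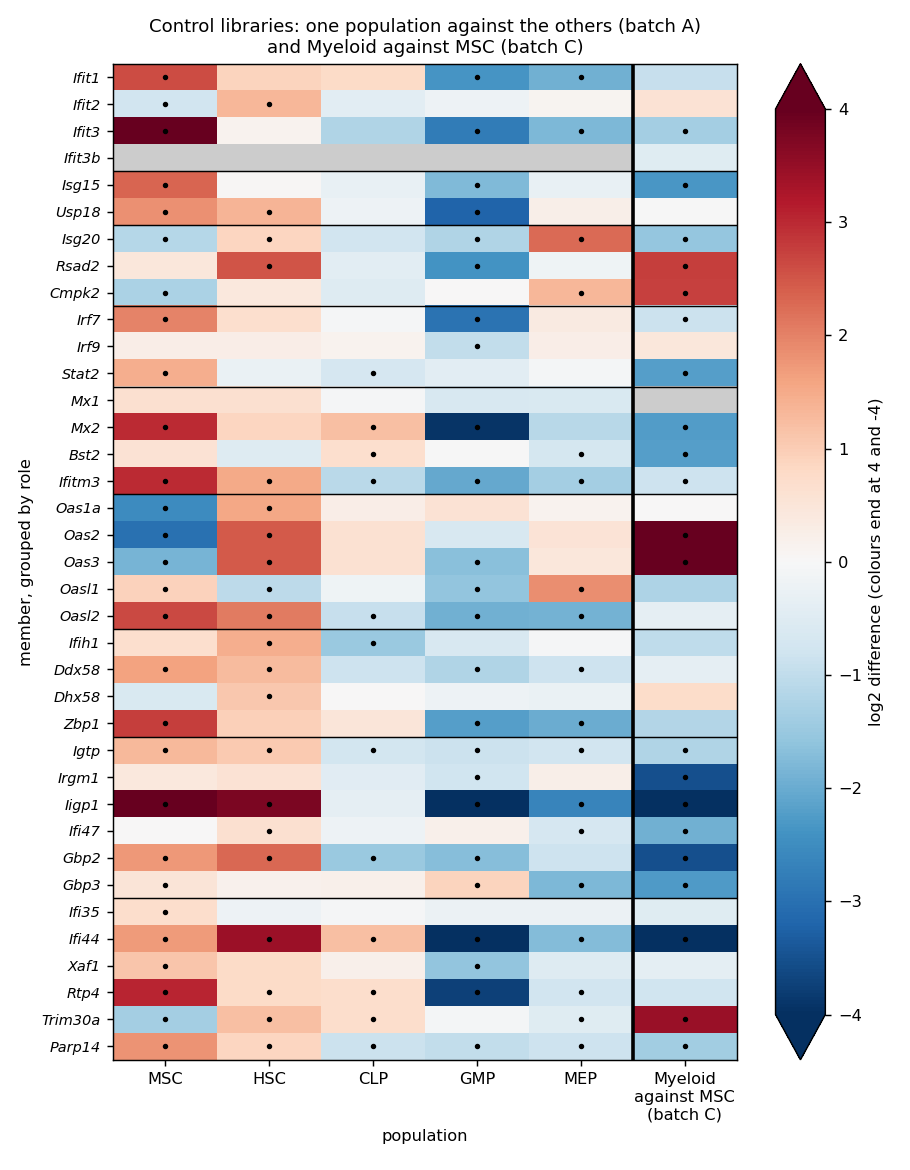
Log2 difference of each member (vertical axis, grouped by role) in each population's control libraries (horizontal axis) against the other 4 populations of batch A, and for Myeloid against MSC in batch C, with dots at an adjusted p under 0.05 and grey where the gene was not tested. Red prevails in MSC and HSC and blue in GMP, and the OAS genes Oas1a, Oas2 and Oas3 are blue in MSC and red in HSC.

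IFIT proteins bind foreign RNA ends and restrain translation. Ifit1 was at 20.0, 18.7 and 11.1 CPM in the 3 batch A MSC controls, at 8.97, 7.37 and 5.09 in HSC, and at 0.691 to 1.77 in the GMP and MEP controls. In CLP it was at 15.1, 4.095, 1.39 and 1.46 CPM, so that CLP control pool 1 lay above MSC control pool 7. Ifit3 was at 22.4, 16.6 and 11.1 CPM in the same MSC libraries and at 1.11 or less in every HSC, CLP, GMP and MEP control. Ifit2 ran the other way: it was at 33.9, 34.1 and 35.2 CPM in HSC and at 9.27, 11.8 and 11.1 in MSC, where its log2 difference was −0.78 ± 0.27 (SE; adjusted p = 0.0197) and was past the threshold in 7 of 12 alternatives (adjusted p up to 0.2416). In MSC control pool 7, the values of Ifit1, Ifit2 and Ifit3 rest on 2 counts each. Ifit1 and Ifit3 were among the 21 higher members of MSC, Ifit2 was higher in HSC, and both Ifit1 and Ifit3 were lower in GMP and in MEP. Ifit3b had counts too low to test and was at 0 in 3 of 4 CLP and 3 of 4 MEP controls.

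ISG15 is a ubiquitin-like modifier, and USP18 removes it and dampens signalling at the type I receptor. Isg15 was at 14.2, 17.1 and 5.53 CPM in batch A MSC controls, at 3.61 to 4.58 in HSC and at 0.564 to 2.22 in GMP, so that MSC did not overlap with either. The 5.53 CPM of MSC pool 7 is 1 count, so the place of that library above HSC and GMP rests on a single count. Usp18 was at 6.01, 6.52 and 9.57 CPM in HSC and at 0.567, 0.322, 0.679 and 0.654 in GMP. In MSC it was at 12.5, 9.09 and 0 CPM in pools 3, 5 and 7, so that MSC overlapped with HSC and pool 7 lay below every GMP control. Both genes were higher in MSC and lower in GMP, and Usp18 was higher in HSC.

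Of the nuclease and nucleotide enzymes, Rsad2 encodes viperin, which makes a chain-terminating nucleotide, Cmpk2 a mitochondrial nucleotide kinase, and Isg20 an exonuclease. Rsad2 was at 15.4, 20.2 and 18.3 CPM in HSC, above the highest value of 7.54 in any other batch A sorted control, with a log2 difference of 2.51 ± 0.30 (adjusted p = 2.466e-06). Its neighbour Cmpk2 was highest in MEP, at 38.2, 34.5, 37.5 and 36.6 CPM, above all other batch A sorted controls (6.97 to 23.9), with a log2 difference of 1.32 ± 0.16 (adjusted p = 1.495e-06). Isg20 was at 43.4, 32.6, 29.7 and 36.4 CPM in MEP against at most 18.4 in the other sorted controls of batch A, a log2 difference of 2.27 ± 0.25 (adjusted p = 4.677e-07). In MSC, Cmpk2 was lower by −1.26 ± 0.25 on the log2 scale (adjusted p = 0.000246), at 8.84, 7.49 and 16.6 CPM. The highest population thus differed between the neighbours Rsad2 and Cmpk2.

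STAT2 and IRF9 are parts of ISGF3, and IRF7 is the factor that drives interferon alpha genes. Irf7 was at 1.13, 2.25, 1.36 and 1.85 CPM in GMP, below every other batch A sorted control, and its log2 difference was −2.96 ± 0.31 (adjusted p = 2.712e-07). It was at 29.7, 16.6 and 38.7 CPM in MSC, 11.1, 15.2 and 12.3 in HSC, and 5.48 to 14.4 in CLP and MEP. Irf9 varied less, at 20.0 to 26.6 CPM in GMP and 32.6 to 66.3 in the other populations, and its GMP libraries lay below all others. Stat2 was at 84.5, 69.0 and 60.8 CPM in MSC, above the 13.3 to 38.1 of all other batch A sorted controls. Irf7 and Stat2 were higher in MSC, Irf7 and Irf9 lower in GMP, and Stat2 lower in CLP; none of the 3 passed the threshold in HSC or in MEP.

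IFITM3 blocks virus entry at endosomal membranes, BST2 tethers budding virus, and the MX proteins are dynamin-like GTPases whose alleles are defective in C57BL/6 mice. Ifitm3 was at 482, 568.1 and 365 CPM in MSC, 180, 201 and 270 in HSC, 73.3, 46.3, 27.9 and 45.2 in CLP, 27.9, 27.3, 39.1 and 23.2 in GMP, and 36.0, 41.5, 47.5 and 43.0 in MEP. MSC and HSC did not overlap with each other or with the 3 progenitor populations. Its log2 difference was 2.98 ± 0.19 in MSC (adjusted p = 2.216e-11), −1.08 ± 0.22 in CLP (0.001011), −2.05 ± 0.23 in GMP (4.747e-07) and −1.36 ± 0.22 in MEP (4.214e-05). Bst2 was at 119 CPM in CLP control pool 1 and at 49.5, 50.2 and 33.5 in the other CLP controls. It was called higher in CLP by 0.68 ± 0.24 (adjusted p = 0.039), but without pool 1 the difference was −0.03. Bst2 is also one of the plasmacytoid dendritic cell markers, whose sum was 1589 CPM in pool 1 and 404 to 717 in the others. Mx2, annotated as a polymorphic pseudogene, was called higher in CLP by 1.20 ± 0.44 (adjusted p = 0.0463), which held in 2 of 12 alternatives, and it was also higher in MSC and lower in GMP. Mx1 was below 2 CPM in all these controls except MSC pool 7, where a single count made 5.53 CPM.

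The OAS enzymes make oligoadenylates that activate RNase L, and they split by population. Oas1a was at 20.3, 22.4 and 32.8 CPM in HSC and at 1.72, 4.28 and 0 in MSC, where the log2 difference was −2.52 ± 0.45 (adjusted p = 5.914e-05). Oas2 had 2 counts in all 3 MSC libraries together, against 7.12, 5.59 and 5.93 CPM in HSC. Oas3 was found in MSC pool 3 alone, at 1.72 CPM, and was at 11.7, 14.6 and 9.57 in HSC. All 3 were called lower in MSC and higher in HSC. The OAS-like genes differed from them. Oasl2 was at 61.9, 72.2 and 60.8 CPM in MSC and 42.8, 46.6 and 59.9 in HSC, above the 3.97 to 11.9 of the CLP, GMP and MEP controls, and its log2 difference was 2.63 ± 0.21 in MSC (adjusted p = 1.172e-09), 2.09 ± 0.20 in HSC (9.71e-08), −0.92 ± 0.24 in CLP (0.007636) and −1.89 ± 0.23 in MEP (2.229e-06). Oasl1, which restrains translation of Irf7, was highest in MEP, at 15.0, 8.56, 6.98 and 12.1 CPM (1.86 ± 0.28, adjusted p = 2.269e-05). Oasl1 was also the 1 member called lower in HSC, by −1.04 ± 0.37 (adjusted p = 0.0433); that call was lost in 8 of 12 alternatives, including the fit with the mouse pool as a block (adjusted p from 0.01076 to 0.4376 over the alternatives).

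Ddx58 (RIG-I), Ifih1 (MDA5) and Dhx58 (LGP2) sense cytoplasmic viral RNA, and ZBP1 senses Z-form nucleic acids. Ifih1 was at 56.4, 63.0 and 63.2 CPM in HSC, above every other batch A sorted control, and Dhx58 was at 20.5, 20.2 and 22.9 there against at most 16.8 in the other 4 sorted populations of batch A. Ifih1 was called lower in CLP by −1.47 ± 0.39 (adjusted p = 0.009032), with 0.522 CPM in pool 1 and 12.6 to 19.7 in the others. Of the 4 sensors, 3 were higher in HSC (all but Zbp1), 2 were higher in MSC (Ddx58 and Zbp1), and the same 2 were lower in GMP and in MEP.

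Immunity-related GTPases and guanylate-binding proteins act on membranes around intracellular pathogens and respond to interferon gamma in particular. IRGM1 is also known for keeping stem cells quiescent. Iigp1 covered a wide range: 150, 135 and 55.3 CPM in MSC, 28.3, 32.5 and 29.6 in HSC, 4.96, 2.44, 0 and 2.19 in CLP, 0.976, 0.761, 0.962 and 0.669 in MEP, and 0, 0, 0.0618 and 0.109 in GMP, where 5 counts were seen in all. MSC lay above HSC, and HSC above all CLP, GMP and MEP controls; the CLP range covered those of GMP and MEP. Its log2 difference was 6.32 ± 0.26 in MSC (adjusted p = 1.547e-14), 3.76 ± 0.27 in HSC (2.442e-09), −2.65 ± 0.42 in MEP (4.262e-05) and −7.07 ± 0.49 in GMP (7.562e-10). Gbp2 was at 49.4, 50.3 and 63.3 CPM in HSC and 44.6, 42.8 and 16.6 in MSC, and was lower in CLP by −1.49 ± 0.41 (adjusted p = 0.0103). Gbp3 was the only member called higher in GMP, at 47.0, 41.1, 54.7 and 34.4 CPM (0.90 ± 0.17, adjusted p = 0.000292), a count that became 2 with the mouse pool as a block. In MEP it was at 5.65, 9.32, 11.8 and 11.7, below all other batch A sorted controls (−1.81 ± 0.20, adjusted p = 6.758e-07). Irgm1 was at 44.1, 41.0 and 40.5 CPM in HSC, 35.8, 32.1 and 55.3 in MSC and 17.6 to 20.6 in GMP, where it was called lower; it was not called in HSC or MSC. Of the 6 GTPases, 4 were higher in MSC, 4 in HSC, 2 were lower in CLP, 4 lower in GMP and 4 lower in MEP.

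The other induced genes were mostly higher in MSC (5 of 6, with Trim30a lower) and in HSC (4 of 6, none lower). Rtp4, a receptor-transporting chaperone, was at 30.6, 31.03 and 44.2 CPM in MSC, 9.52, 9.15 and 10.4 in HSC and 0.709, 0.564, 0.679 and 1.05 in GMP, with a log2 difference of 3.04 ± 0.25 in MSC (adjusted p = 1.825e-09) and −3.74 ± 0.32 in GMP (1.241e-08). Ifi44 was at 12.0, 15.1 and 13.8 CPM in HSC against at most 6.42 in the other sorted controls of batch A (3.41 ± 0.36, adjusted p = 4.407e-07). Trim30a, a TRIM family member, was at 66.7, 61.5 and 80.2 CPM in HSC, and in MSC it was lower by −1.35 ± 0.23 (adjusted p = 4.781e-05). In CLP, Trim30a (0.70 ± 0.16, adjusted p = 0.003157), Ifi44 (1.21 ± 0.40, 0.0306) and Rtp4 (0.70 ± 0.26, 0.0485) were called higher; Rtp4 is outside the rule for named genes and completes the 5. The Ifi44 call was lost in 8 of 12 alternatives. With the mouse pool as a block, only 1 member was called higher in CLP and 7 were lower. Parp14, an ADP-ribosyltransferase, was highest in MSC, at 81.2, 67.4 and 110 CPM, and Ifi35 and Xaf1 were called higher in MSC, with Xaf1 lower in GMP. Xaf1 was uneven in MSC, at 29.5, 2.675 and 5.53 CPM in pools 3, 5 and 7 (137, 5 and 1 counts). Pools 5 and 7 thus lay below every HSC control (10.9 to 15.1 CPM) and every CLP control (5.83 to 12.6 CPM).

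Myeloid cells could be set against another sorted population within a batch only in batch C, where MSC and Myeloid controls came from the same 3 pools (15, 17 and 19). Of 36 members tested, 5 were higher in Myeloid and 16 lower, where 22.4% of 16183 genes were called higher and 25.9% lower; the median log2 difference was −0.89 for the members and −0.08 for all genes. All 6 GTPases were lower. Iigp1 was at 0.428, 0.149 and 0.206 CPM in Myeloid and 235, 167 and 276 in MSC (−9.59 ± 0.45, adjusted p = 3.359e-06). Gbp2 was lower by −3.52 ± 0.35 (adjusted p = 0.000106), Bst2 by −2.22 ± 0.22 (0.00011) and Stat2 by −2.21 ± 0.31 (0.000643). Ifi44 had 0 counts in the 3 Myeloid libraries against 278 in MSC, at least 94.1-fold lower when set against a floor of 3 counts over the group, and at least 53.6-fold without pool 17. Without pool 17, 9 members were lower in place of 16.

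The 5 members higher in Myeloid were Trim30a, Oas2, Oas3, Rsad2 and Cmpk2. Trim30a was at 59.4, 59.3 and 82.8 CPM against 8.29, 6.71 and 5.13 in MSC (3.44 ± 0.31, adjusted p = 6.792e-05). Rsad2 was at 63.7, 59.2 and 71.9 against 17.6, 6.13 and 7.38 (2.75 ± 0.46, adjusted p = 0.001658), and Cmpk2 at 55.8, 55.6 and 85.6 against 18.0, 5.30 and 8.45 (2.73 ± 0.50, adjusted p = 0.002735). Oas3 had 393 counts in Myeloid and 0 in MSC, at least 129-fold higher at the same floor and at least 57-fold without pool 19 (adjusted p = 0.001646), and Oas2 had 455 counts against 1 (adjusted p = 0.000837). The 3 Myeloid controls thus held Oas2 and Oas3 transcripts that were at or near 0 in MSC of the same mice, as in MSC of batch A. For these 5 genes the groups did not overlap.

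In Myeloid batch B, the members varied together between the 3 control pools. Pool 11 had the lowest level of the 6 Myeloid libraries of that batch for 23 members, and pool 13 the highest for 26. How often these pools were lowest or highest over all genes was not computed, so these counts do not set the members apart. Pool 11 also differed over all genes. The chi-square per gene between control libraries was 1989 for pools 9 and 11 and 1233 for pools 11 and 13, against 562.5 for pools 9 and 13. Relative to each member's mean over the 6 libraries, the median deviation on the log2(CPM + 1) scale was −0.62 in pool 11, 0.34 in pool 9 and 0.70 in pool 13, and −0.32, −0.17 and 0.07 in the treated pools 10, 12 and 14. Oas3 was at 9.68, 112 and 147 CPM in control pools 11, 9 and 13, and Oasl2 at 14.4, 62.0 and 134. Mx1 ran from 0.0384 to 4.66 and 12.1 CPM, and Irf7 from 24.2 to 88.4 and 87.8. The median SD over the 3 controls was 0.739 for 35 members, against 0.405 for all genes above 1 CPM, and 28 of the 35 exceeded that value. In the 3 treated libraries the medians were 0.398 and 0.367. Pool 11 also had the highest neutrophil marker sum (208000 CPM, against 176300 and 150800 in pools 9 and 13), the lowest monocyte and macrophage sum (1208 against 2056 and 1810) and an erythroid sum of 461 against 16.0 and 23.1; their part in the result was not tested.

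**Figure D4:**
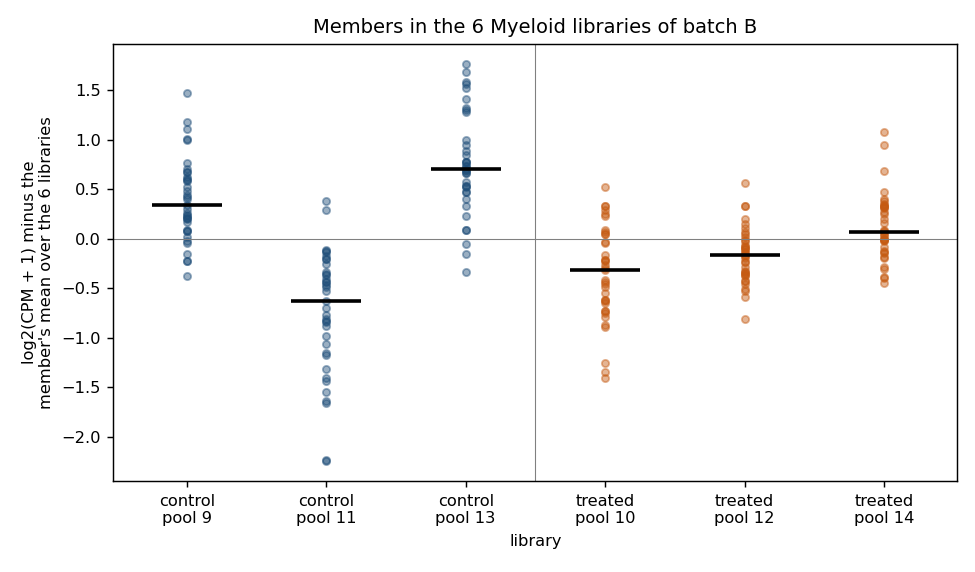
Deviation of each member's log2(CPM + 1) from its mean over the 6 Myeloid libraries of batch B (vertical axis) in each library (horizontal axis), with black bars for the median. The 3 control pools are spread from −0.62 to 0.70, and the 3 treated pools lie between them.

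In whole marrow, 3 controls belong to batch A and 1 (pool 15) to batch C. Rsad2 was at 713 CPM (9062 counts) in pool 15 against 26.7, 65.6 and 49.6 CPM in batch A, 10.9 times the highest of these. Ifit1 was at 34.8 CPM against 3.71, 6.58 and 4.46, and Isg15 at 46.6 against 13.5, 13.2 and 15.2. These 3 genes were chosen after their values were seen. Of the 35 members with at least 1 CPM on average in these libraries, 8 were above all 3 batch A libraries and 21 below all 3, where 35.7% of 14979 genes of that level were above and 46.7% below. The erythroid marker sum was 197400 CPM in pool 15 and 14490 to 19280 in the others. In sorted cells of the same pool, Rsad2 was at 17.6 CPM in MSC, above the 6.13 and 7.38 of the other 2 batch C controls, and at 63.7 in Myeloid, between their 59.2 and 71.9. Ifit1 was at 66.3 CPM in MSC of pool 15, above the 27.0 and 22.6 of the others. With 1 library, batch and pool cannot be told apart.

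The comparison that the study's design centres on is treated against control within each population. No member passed the threshold in any population. Of all genes, 0.0313% were called in MSC (5 of 15984), 0.0069% in HSC (1 of 14494), and 0.0% in CLP, GMP, MEP, Myeloid batch B and Myeloid batch C. At an unadjusted p under 0.05 there were 676, 1156, 29, 195, 444, 191 and 1264 genes, in the same order. At an unadjusted p under 0.05, the members numbered 4 of 35 tested in MSC, 1 of 35 in HSC, 0 of 32 in CLP, 0 of 31 in GMP, 0 of 30 in MEP, 2 of 36 in Myeloid batch B and 1 of 34 in Myeloid batch C. DESeq2 called no member either, while over all genes it called 64 in MSC, 5 in HSC, 13 in MEP, 0 in GMP and in CLP, 16 in Myeloid batch B and 149 in Myeloid batch C. Without the low count filter, 333 genes and no member were called in Myeloid batch C and 42 and no member in batch B. The median log2 difference of the members was −0.08 in MSC, 0.05 in HSC, 0.05 in CLP, 0.09 in GMP and −0.01 in MEP, and that of all genes was −0.03, 0.00, 0.02, 0.03 and 0.01. Leaving out a pool gave −0.30 (without pool 8) to 0.23 (without pool 2) in HSC and −0.06 (without pool 8) to 0.07 (without pool 7) in GMP, so the sign in both rested on single libraries; in MEP it ran from −0.07 to 0.03 and in CLP from 0.01 to 0.15. In Myeloid it was −0.29 in batch B and −0.23 in batch C, against 0.00 and −0.02 for all genes.

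**Figure D5:**
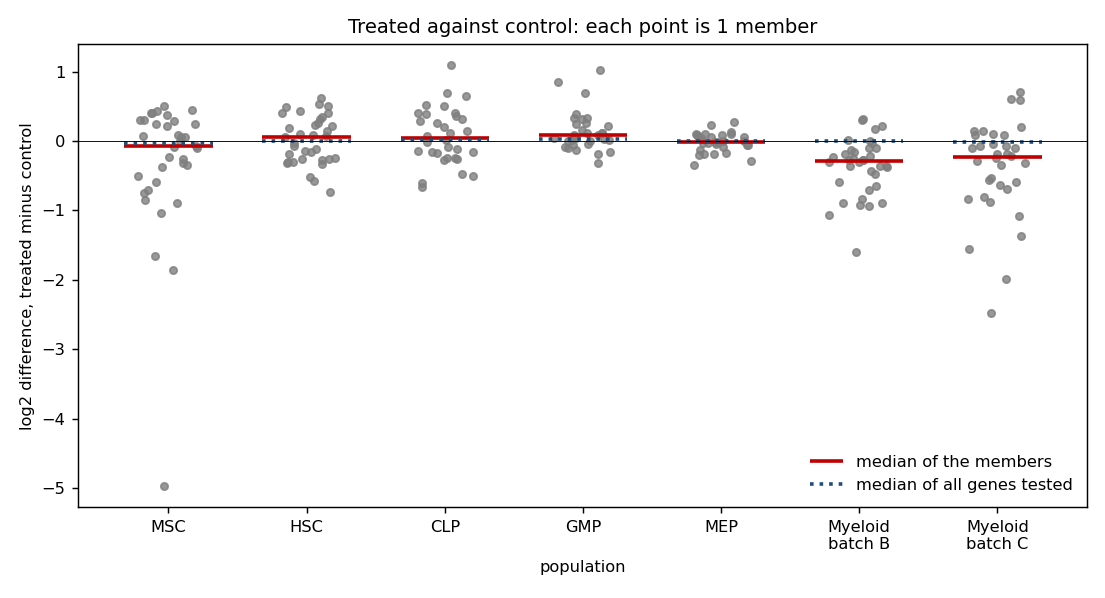
Log2 difference between treated and control libraries (vertical axis) for each member tested in each population (horizontal axis), with a red line at the members' median and a dotted blue line at the median of all genes tested. The medians of the members lie within 0.09 of 0 except in the Myeloid batches, where they are −0.29 and −0.23, and the lowest MSC point is Mx1, which had 0 counts in treated libraries.

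In MSC, Irf7 was at 29.7, 16.6 and 38.7 CPM in the batch A controls and 14.6 in the treated library, and at 59.2, 48.5 and 81.1 in the batch C controls and 56.4, 30.2 and 24.4 in the treated ones. The treated batch A library (pool 8) held 8 counts of Irf7, and its neutrophil markers summed to 11320 CPM against 2058 to 6737 in the batch A controls and its erythroid markers to 6441 against 1396 to 3825; their part was not tested. The groups overlapped only in batch C, by 1 library, and the log2 difference with a batch term was −0.84 ± 0.31 (adjusted p = 0.9604). Isg15 differed by −0.75 ± 0.35 (adjusted p = 0.9993). Mx1 had 0 counts in the 4 treated libraries and 23 in the 6 controls, 16 of them in pool 17, at least 8.22-fold lower at a floor of 3 counts over the group and at least 3.69-fold without pool 17 (adjusted p = 0.9993). The other member at an unadjusted p under 0.05 was Ddx58 (adjusted p = 0.9993), at 32.8 to 36.3 CPM in the treated and 37.6 to 66.4 in the control libraries, which is outside the rule for named genes and is given because it completes the 4. Leaving out a pool in turn gave medians from −0.17 (without pool 20) to 0.05 (without pool 15).

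In HSC, Ifitm3 was at 262, 332, 277 and 279 CPM in treated and 180, 201 and 270 in control libraries (0.50 ± 0.21, adjusted p = 0.6184), with 1 control inside the treated range. Dhx58 did not overlap, at 11.6, 12.3, 18.9 and 17.3 CPM in treated and 20.5, 20.2 and 22.9 in control libraries (−0.52 ± 0.25, adjusted p = 0.6292). Parp14 differed by −0.57 ± 0.28 (adjusted p = 0.6265). The treated HSC library of pool 6 held 107412 counts. Its 18.9 CPM of Dhx58 was 3 counts, so the place of that library below the controls rests on very few counts.

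In CLP, the members with the smallest p were Parp14 (0.69 ± 0.34), Oas1a (0.65 ± 0.38) and Trim30a (−0.27 ± 0.21), all with an adjusted p of 0.9999. In GMP they were Ifitm3 (0.33 ± 0.16), Ifih1 (−0.32 ± 0.17) and Gbp2 (0.31 ± 0.16), all with an adjusted p of 1.0. Gbp2 was at 6.95, 7.11, 7.28 and 6.53 CPM in treated GMP and 5.95, 5.24, 5.74 and 6.03 in control GMP, without overlap. In MEP, the differences of all members tested lay between −0.35 and 0.27, and the smallest p belonged to Irgm1 (0.13 ± 0.11), Rtp4 (−0.35 ± 0.30) and Irf9 (0.11 ± 0.10), all with an adjusted p of 0.9995.

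In Myeloid batch B, 30 of 36 members had a negative difference. Rsad2 was at 18.7, 17.0 and 22.6 CPM in treated and 40.8, 20.1 and 53.1 in control libraries (pools 9, 11 and 13), a difference of −0.89 ± 0.35 (adjusted p = 1.0). Oasl1 was at 1.62, 3.62 and 5.63 in treated and 17.5, 2.61 and 15.1 in control libraries (−1.60 ± 0.70, adjusted p = 1.0), and Rtp4 differed by −0.94 ± 0.62. Control pool 11 lay within the treated range for Rsad2 and Oasl1 and, at 4.53 CPM, below it for Rtp4, which was at 7.75, 11.5 and 14.4 in treated libraries and 28.3 and 35.8 in the other 2 controls. The members' median was −0.57 without pool 11 and −0.01 without pool 13, so single control pools moved it by more than 1.5 times.

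In Myeloid batch C, 25 of 34 members had a negative difference. Irf9 was higher in treated libraries without overlap, at 106, 82.7 and 104 CPM against 69.1, 69.2 and 59.5 (0.60 ± 0.19, adjusted p = 0.4531). Cmpk2 was at 39.1, 42.6 and 50.9 against 55.8, 55.6 and 85.6 (−0.54 ± 0.25, adjusted p = 0.5803), and Isg20 at 0.369, 2.05 and 2.69 against 8.49, 5.05 and 6.99 (−1.99 ± 0.94, adjusted p = 0.5855). Neither overlapped, and neither passed the threshold. The median was −0.01 without pool 19 and −0.48 without pool 20. The treated libraries also differed in markers, with stromal sums of 144 to 211 CPM against 27.8 to 119 and granulocyte-monocyte progenitor sums of 1030 to 2210 against 2450 to 2813. Plasmacytoid dendritic cell sums, a list that includes Bst2, were 270 to 301 against 201 to 224, and lymphoid progenitor sums 200 to 287 against 54.3 to 149. T and NK cell sums were 31.3 to 67.4 against 74.0 to 90.3. B cell sums were 5.05 to 9.84 against 10.8 to 16.6, and endothelial sums 0.81 to 4.72 against 4.85 to 7.21. None of these sums overlapped between treated and control, while those of the other marker lists did. The part of these differences in the result was not tested. With both batches in one fit with a batch term, the median was −0.32 and no member was called (smallest adjusted p 0.9949).

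The difference between populations in the response to treatment was tested directly across the 7 treatment effects: 0.548% of 21525 genes and no member passed, and the smallest p-values were those of Isg20 (adjusted p = 0.438), Mx1 (adjusted p = 0.4535) and Irf7 (adjusted p = 0.6257). Between the 2 Myeloid batches, 0.00595% of 16803 genes and no member passed. Irf9 differed by 0.80 ± 0.30 between batches (adjusted p = 0.7372) and Rsad2 by 0.83 ± 0.44 (adjusted p = 0.9039). Mx1 was at 0 counts in all 3 treated Myeloid libraries of batch C and at 0, 4 and 24 counts in control pools 15, 17 and 19. That is at least 8.04-fold lower at a floor of 3 counts over the group and at least 1.76-fold without pool 19, which holds most of the counts. In batch B it was at 2.19, 5.22 and 8.53 CPM in treated and 0.0384, 4.66 and 12.1 in control libraries (adjusted p of the difference 0.8656).

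The rest of the pathway was read from 4 lists. Interferon genes themselves were almost silent: the 21 ligand genes had 711 counts of 1357920544 in the 57 libraries, and 9 of them had none. Ifng gave 459 counts in 29 libraries and was highest in CLP control pool 1, at 3.91 CPM, and CLP treated pool 2, at 3.75, the libraries with other cell markers named above, and Ifnb1 gave 7 counts in 5 libraries. No gene of the 4 lists was called in any treatment comparison. The shares of all genes given above for each comparison are the background of the counts that follow, and several counts of the next 2 lists are near it. Of 19 receptor and JAK-STAT genes, 9 were higher and 4 lower in MSC, 4 and 5 in HSC, 4 and 1 in CLP, 3 and 4 in GMP, and 1 and 7 in MEP. Of 18 upstream sensing genes, 4 were higher and 7 lower in MSC, 3 and 1 in HSC and in CLP, 5 and 2 in GMP, and 6 and 3 in MEP.

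In HSC the receptor chains Ifnar2, Ifngr1 and Ifngr2 ran against most members, while Ifnar1 was not called. In MEP, Ifnar2 and Ifngr2 were lower, as were 15 members. Ifngr2 was higher in MSC (2.33 ± 0.14, adjusted p = 4.854e-12) and lower in HSC (−1.44 ± 0.16, 8.669e-07) and in MEP (−1.24 ± 0.14, 8.201e-07). Ifngr1 was higher in GMP (1.38 ± 0.21, adjusted p = 2.663e-05) and lower in HSC (−1.68 ± 0.29, 0.0001504). Ifnar2 was higher in MSC (1.53 ± 0.14, adjusted p = 8.659e-09) and lower in HSC (−0.92 ± 0.16, 0.0001713) and in MEP (−0.63 ± 0.14, 0.001152), and Ifnar1 was higher in MSC (0.75 ± 0.22, 0.006849) and not called in the other 4. HSC, where 20 members were higher, was thus the population in which Ifnar2, Ifngr1 and Ifngr2 were all lower. Irf1, an interferon-induced transcription factor, was higher in MSC (1.27 ± 0.32, adjusted p = 0.002182) and CLP (1.09 ± 0.28, 0.008224) and lower in MEP (−1.19 ± 0.32, 0.006584). In CLP it was at 387 CPM in control pool 1, a library with other cell markers, and at 130, 125.5 and 64.1 in control pools 3, 5 and 7. Whether the CLP call holds without pool 1 was not tested.

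In Myeloid against MSC of batch C, Ifnar1 (−1.07 ± 0.21, adjusted p = 0.003777), Ifnar2 (−1.80 ± 0.26, 0.0007371), Ifngr1 (−1.33 ± 0.25, 0.002871) and Irf1 (−2.24 ± 0.41, 0.002728) were lower. The remaining receptor chain, Ifngr2, was not called (0.06 ± 0.20, adjusted p = 0.8345). A list of 49 further interferon-induced genes, none of them members, had 48 tested in batch A: 21 were higher and 3 lower in HSC, 5 and 24 in GMP, and 4 and 21 in MEP, where 16.9% and 8.24%, 21.3% and 15.1%, and 22.2% and 15.3% of all genes were called. In MSC 16 were higher and 11 lower, against 26.9% and 29.9% of all genes, and in CLP 13 and 5, against 18.5% and 9.02%. In Myeloid against MSC, 10 of 46 tested were higher and 16 lower, as were 6 and 8 of the receptor and JAK-STAT genes and 8 and 2 of the 17 sensing genes tested, against 22.4% and 25.9% of all genes.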

How the data were processed

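RNA of 57 bone marrow libraries was extracted with an RNeasy 96 kit and sequenced (Illumina HiSeq) from NEBNext Ultra II Directional libraries, per the labels' protocols. The values are expected counts per gene deposited by the authors, made with Salmon on mm10 with FastQC 0.11.5, per the submitters' processing notes. Neither the annotation release nor the Salmon version is given in the sources used here. The deposited expected counts were already whole numbers, and repeated lines of a gene and sample (0 of 3210924 gene-sample pairs differed) were read once.

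Counts were tested with edgeR 4.0.16 (limma 3.58.1, R 4.3.3; filterByExpr, TMM, robust quasi-likelihood test, Benjamini-Hochberg threshold 0.05), with a batch term in MSC. Standard errors are the log2 difference over the root of the F value. Simulated counts were run through the fits of treatment in GMP and in Myeloid batch B, of HSC against the others, and of Myeloid against MSC. The outcome is not given here, and the other fits were not simulated. Alternatives were DESeq2 1.42.0, no filter on low counts, Ensembl genes alone, limma voom with weights, Ifit3 and Ifit3b summed, no libraries under 1000000 counts, all sorted controls with batch, each pool left out, and a pool block. Plain library totals, and tracking genes without Myeloid batch B, were chosen after seeing the data. The members and lists were chosen with earlier results of these data known.

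All 37 members are described by role. Test values cover members past the threshold (in population comparisons the 4 smallest p per direction), or the 3 smallest p where none passed. Control levels are given for Pappa, test values or counts for 8 named pathway genes, and r for 10 tracking genes. Of the pathway genes and of the tracking genes, 1 each is not reported here.

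By the labels a pool is the same mice in every population, so pools pair populations but never control with treated. Deviations of same-pool libraries correlated with a median r of 0.05 in batch A (33 pairs, from −0.39 to 0.44) and 0.13 in batch C (3 pairs). Of 102 replicate pairs, 0 were identical, and the lowest chi-square per gene was 1.84. Fold bounds set against a floor of 3 counts cover counting error only.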

Additional observations from a re-analysis of the deposited data

Results flagged for a closer look

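Dixon's criterion was applied to 12 groups of the library mean and 40 groups of single genes, and 4 libraries stood far from the rest of their group; chance gives about 1 in 20 groups. Mx1 in MSC controls was highest in pool 7, at 5.53 CPM, which is a single count in a library of 321860 counts. Trim30a in treated CLP was lowest in pool 2, at 26.8 CPM, the library in which neutrophil markers summed to 8168 CPM. Ifih1 in treated GMP was highest in pool 8, at 18.5 CPM. Rsad2 in whole marrow was highest in pool 15, at 713 CPM, the only whole marrow library of batch C; this gene was singled out after its value was seen.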

How the results depend on the processing

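No member was called in a treatment comparison under any alternative run. In population comparisons, DESeq2 and the fit of all sorted controls with batch each left 3 members lower in MSC in place of 7. The 1 member lower in HSC became 0 without the low count filter, with plain library totals and with all sorted controls. The 5 higher in CLP became 1 without the filter and with plain totals, 2 with Ensembl genes alone, 3 without libraries under 1000000 counts and 0 with all sorted controls. The 7 lower in CLP became 4 with plain totals and without libraries under 1000000 counts, which also gave 2 higher in GMP in place of 1. Leaving out each pool gave 4 to 8 lower in MSC, 0 in HSC, 0 to 3 higher and 3 to 5 lower in CLP, 1 to 2 higher in GMP, 9 to 14 lower in MEP and 9 to 12 lower in Myeloid against MSC. With the mouse pool as a replicate block, 0 members were lower in HSC, 1 was higher in CLP and 2 were higher in GMP, and the block moved no other count of members by more than 1.5 times. Bst2 in CLP turned to −0.03 without replicate 1 and ranged up to 0.87 without replicate 7. The causes were not tested. Of single-gene values, 736 kept direction and side of the threshold, and 44, in 8 genes, fell short of it. Depth limits HSC, CLP and MSC most, where 4 libraries hold under 1000000 counts. In treatment comparisons pools cannot serve as a block, since control and treated mice are in different pools.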

Other observations

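Among control libraries, pool 1 had the lowest mean of the members in CLP (2.89), GMP (2.60) and MEP (3.03), and among treated libraries pool 2 had the lowest in HSC (3.69), CLP (2.97), GMP (2.61) and MEP (2.98). In whole marrow of batch A, pool 1 was instead the highest of 3.

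Deviations of Ensembl genes from their group mean were set against those of the members' mean over 52 libraries of at least 1000000 counts. Only genes outside the interferon lists used here were ranked, and those lists do not hold every interferon-induced gene. The genes most like the members' mean included Asah1 (Pearson r 0.86), Mtmr6 (0.82), Cul3 (0.82), Mov10 (0.81), Cpne1 (0.81), Samd9l (0.81), Steap4 (0.80), Crlf3 (0.80) and Plekho2 (0.80). Without the 6 Myeloid libraries of batch B (46 libraries), Samd9l stayed at 0.81, Asah1 was at 0.79 and the others named were between 0.60 and 0.73. The median r was 0.56 for the members themselves and 0.12 for all genes, and 0.46 and 0.11 without batch B. Libraries of a pool share mice, so the values are a description.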
